A study of Mus musculus with 10 samples.

Results

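Rab GTPases are small proteins that switch between a GTP-bound and a GDP-bound form on the membranes of the cell. In the GTP-bound form each Rab recruits effectors that move, tether or fuse 1 kind of vesicle, exchange factors load the GTP, and GTPase-activating proteins of the TBC family end the cycle. In neurons they serve synaptic vesicle release, the recycling of receptors in dendrites and the transport of endosomes along axons. Here the family was read in the hippocampus of adult mouse offspring whose dams had or had not been given estradiol in pregnancy. Members were all array features named Rab with a number and at most 2 further letters or digits, which gave 59 names on 116 probes, of 27376 names on 41174 probes. Of the 59, 58 are Rab GTPases, and Rab3ip is an exchange factor whose name has the same form.

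The offspring were ICR mice, an outbred stock, and all 10 were labelled adult and male. For the high-estradiol group (HE, 5 animals), dams took estradiol valerate, an ester that releases estradiol, by mouth from embryonic day E5.5 until E11.5 at a daily 100 µg/kg, and for the control group (NC, 5 animals) dams took only the corn oil vehicle. The litter of each animal is not given, so the p-values cover only the spread among these animals. Each animal has 1 single-colour array, and values below are log2 processed signals relative to the 75th percentile of the array, so that 0 marks that percentile. They compare the same probe between arrays and do not rank genes.

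Across the whole series, the 75th percentile of the signal was 898 to 1277 and the share of probes well above background 70.3% to 78.9%. The first 4 NC arrays shared slide 1 and the last 3 HE arrays slide 3, so that only slide 2, with NC 5 and the first pair of HE arrays, compares the groups within 1 scan. Xist was low (-7.25 to -4.51) on NC 5, HE 4 and HE 5 and high (3.21 to 4.45) on the other 7 arrays, against the male label of those 7 animals. Neuronal markers gave summed signals of 300.2 to 433 in NC and 324 to 411 in HE, where 1 unit is the 75th percentile. Markers of hippocampal pyramidal and granule cells gave 40.8 to 50.5 and 40.03 to 61.6. Of the 10 neuronal markers 2 rose and 1 fell, and of the 10 pyramidal and granule cell markers tested 1 rose and 0 fell. The 12 thalamic markers gave 37.9 to 90.1 in NC and 10.02 to 36.9 in HE, and 10 of them fell, 0 rose; Calb2 and Zic1 did not pass. The 13 myelin markers gave 457 to 581 in NC and 261 to 341 in HE, and 10 fell, 0 rose. The 8 astrocyte markers gave 334 to 401 in NC and 273 to 317 in HE, and 2 fell, 0 rose. The 6 endothelial markers gave 3.24 to 6.56 in NC and 2.89 to 3.89 in HE, and 1 fell, 0 rose, with all 6 below 0. The liver markers without Ttr gave 2.90 to 4.79 on NC 1, NC 2 and NC 4 and 0.019 to 0.34 on the other 7 arrays, and 3 of 8 with Ttr fell; the red cell markers gave 118 to 308 in NC and 71.9 to 133 in HE, and 1 of 3 fell. Every marker of these lists was well above background on some array. The part of these differences in the results below was not tested, apart from 1 fit with the thalamic markers as a covariate, and in bulk RNA fewer cells of a type and less RNA per cell cannot be told apart.

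Most Rab genes did not differ detectably between the groups, and those that did moved both ways. Of the 59 names, 58 were well above background on at least 3 arrays of a group and were tested, while Rab44 was well above background on 0 of 10 arrays. By limma with Benjamini-Hochberg adjustment over 20086 genes and a threshold of 0.05, 6 members were higher in HE (Rab35, Rab15, Rab40b, Rab21, Rab24 and Rab39b) and 4 were lower (Rab37, Rab7l1, Rab31 and Rab25). Rab25 was tested only because NC arrays read it above background, so its call is no support and 3 lower calls remain without it. Of all genes tested, 6.48% were higher and 13.9% lower, 20.4% in all, against 10 of 58 members. The median difference of the members was 0.05, with 33 above and 25 below 0, and that of all genes was -0.06. On 7 members every HE array lay above every NC array and on 3 every HE array lay below, against 5.57% and 11.0% of all genes, 16.5% in all. Both counts depended on the scaling: relative to the median of each array, 17 members were higher and 1 lower, beside 16.6% and 8.68% of all genes, and the median of all genes moved from -0.06 to 0.16. Leaving out 1 array gave 2 to 6 higher and 1 to 6 lower members, beside 2.82% to 7.03% and 7.05% to 14.0% of all genes.

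**Figure D1:**
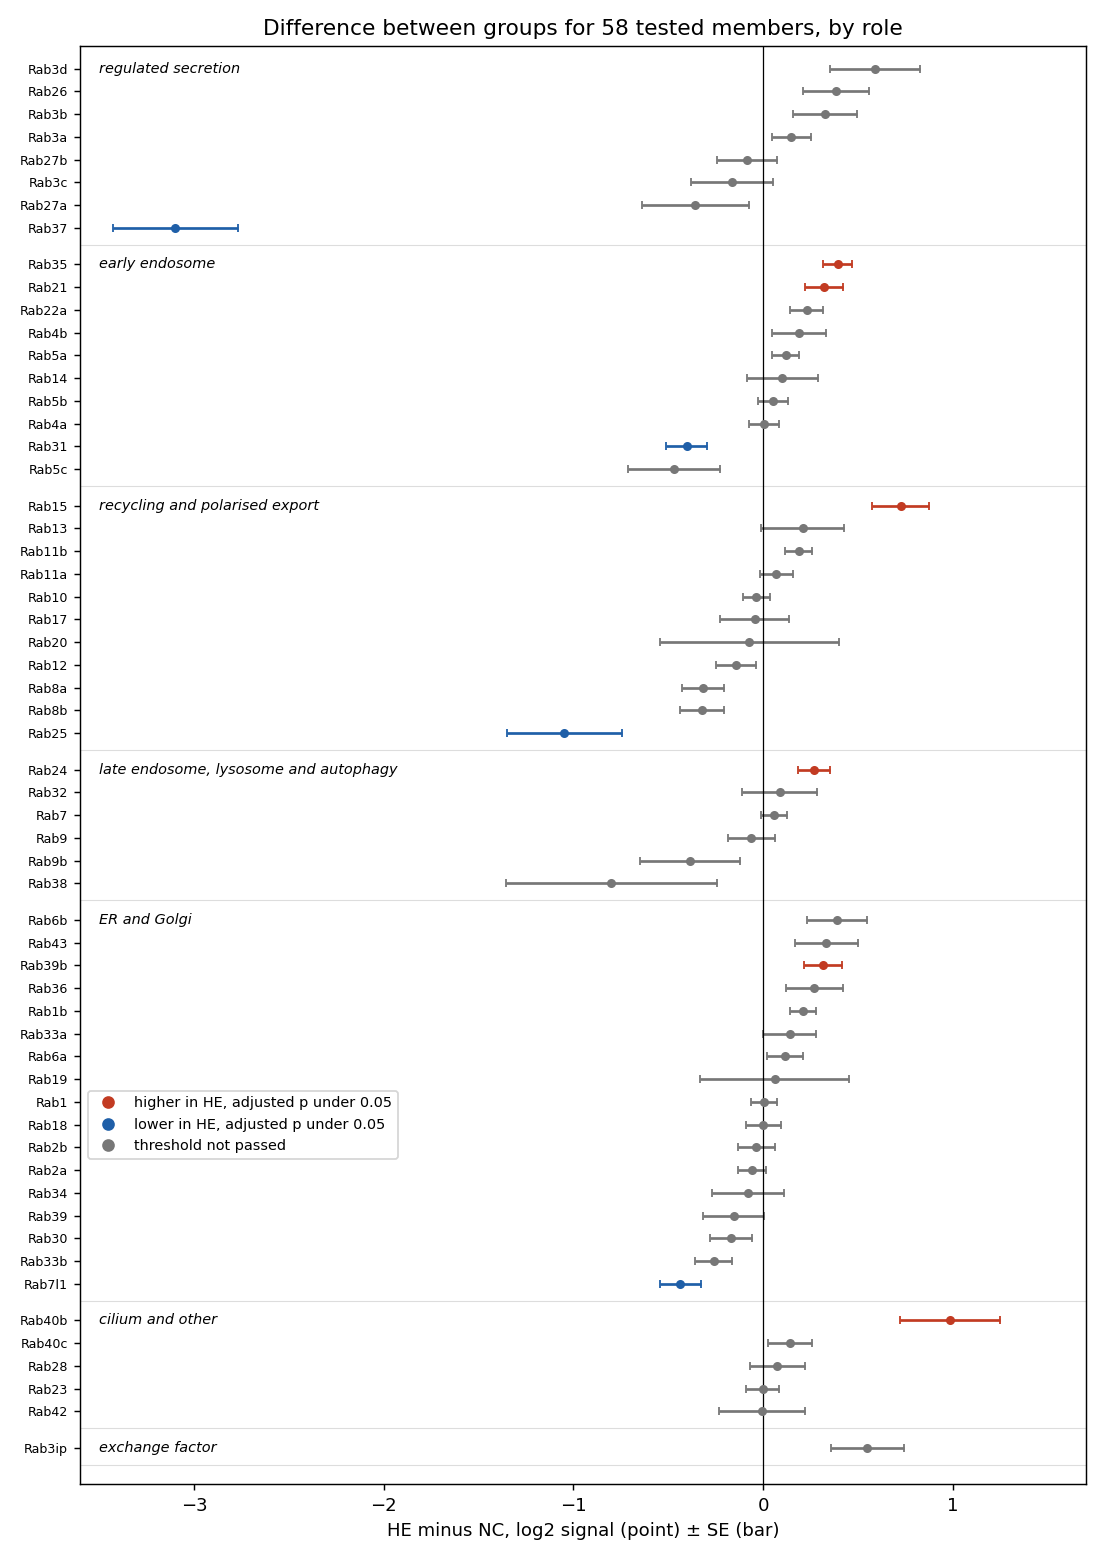
Difference between HE and NC in log2 signal (x axis; point, with SE as the bar) for the 58 tested members (y axis), grouped by role and coloured by the limma call. Rab37 at -3.10 stands far to the left of the other members, which lie between -1.05 and 0.98.

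For the 3 called members with a probe across an intron (its 60 bases cover a longer stretch of the mm9 genome), that probe is printed below as the array holds it, since it reads spliced transcript; in each, 1 of the 3 reading frames has no stop codon. For Rab37 it is the dimmer of 2 probes and for Rab21 and Rab25 the one tested. They lie at chr11:115021819-115021998 on the plus strand, chr10:114727949-114731967 on the minus strand and chr3:88346274-88346663 on the minus strand.
Rab37: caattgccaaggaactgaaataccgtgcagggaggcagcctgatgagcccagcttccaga
Rab21: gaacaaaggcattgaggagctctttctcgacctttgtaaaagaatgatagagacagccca
Rab25: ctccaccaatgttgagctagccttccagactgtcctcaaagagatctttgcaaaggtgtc

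Rabs of regulated secretion carry vesicles to the plasma membrane for release on demand, and of 8 tested, 1 fell and 0 rose (median 0.03). The share called was 12.5% here, beside 20.4% of all genes tested. Over the roles below it ran from 11.8% (endoplasmic reticulum and Golgi) to 30% (early endosome). The secretory member that fell was Rab37, a Rab of secretory granules. Its signal was -0.02, -0.61, 0.80, -0.11 and 0.57 on NC 1 to NC 5. On HE 1 to HE 5 it was -3.75, -3.33, -2.59, -2.25 and -2.95. Every HE array lay below every NC array. The difference was -3.10 ± 0.33 (SE, n = 5 and 5), an 8.57-fold lower signal, with a limma adjusted p of 0.00252. This probe lies at chr11:115023290-115023349 (mm9). The intron-spanning Rab37 probe printed above, upstream of it, fell by 2.67 (SE 0.30, adjusted p = 0.00327), from -2.20 ± 0.68 to -4.87 ± 0.30 (SD, n = 5 each). Within slide 2, HE 1 and HE 2 against NC 5 alone, the difference was -4.11. With slide as a block the estimate was that same difference (limma adjusted p = 0.0290).

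**Figure D2:**
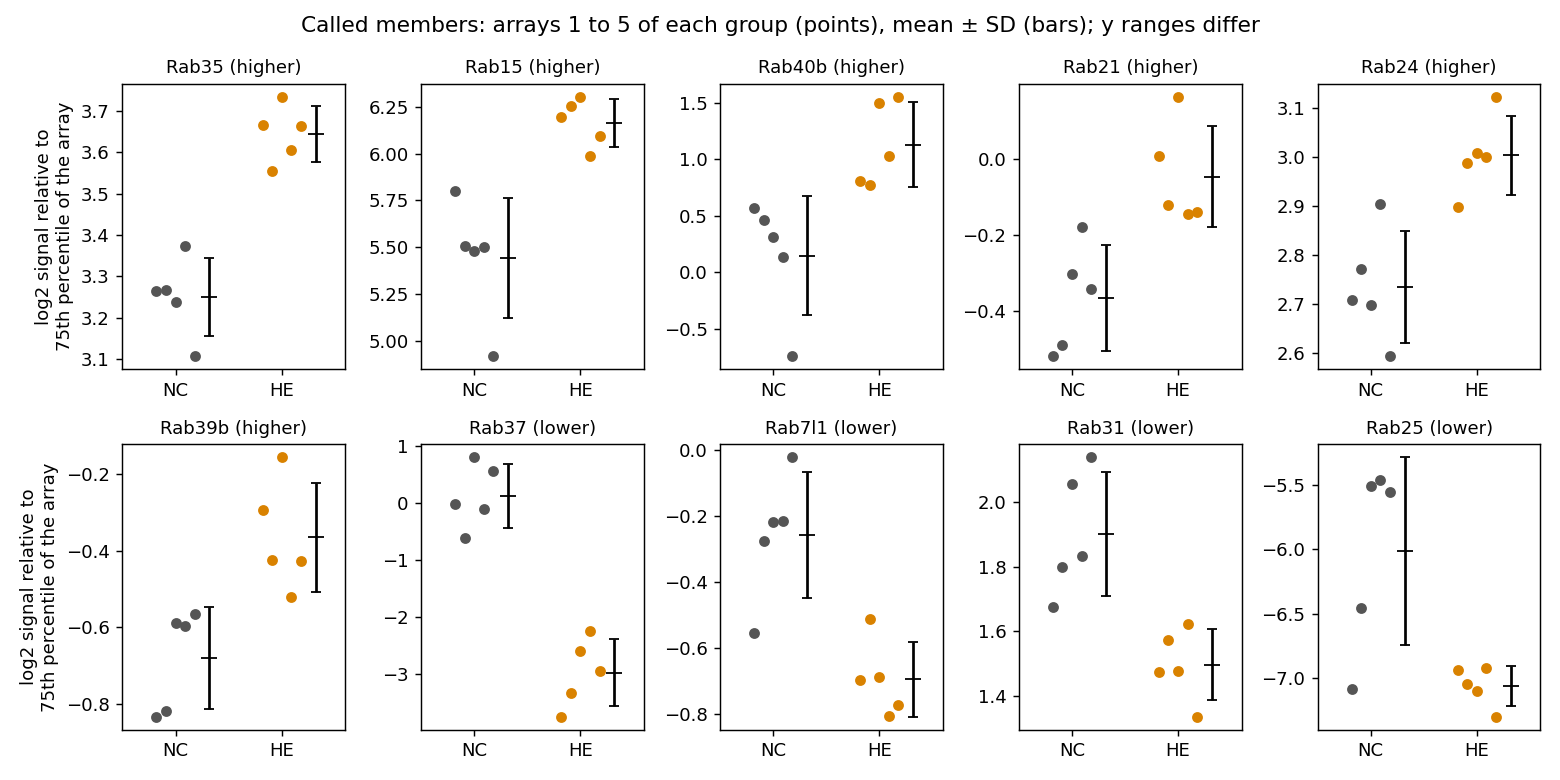
Log2 signal relative to the 75th percentile of the array (y axis, with a range of its own in each panel) for the 10 called members on the 5 NC and 5 HE arrays (points, arrays 1 to 5 from left to right), with mean ± SD beside them. The groups overlap for Rab24, Rab7l1 and Rab25 and do not for the other 7.

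Rab3a, the most studied Rab of synaptic vesicles, read 6.62, 6.80, 6.44, 6.65 and 6.36 in NC and 6.80, 6.64, 6.57, 6.85 and 6.76 in HE. The groups overlapped, and the difference of 0.15 ± 0.10 (SE) had a limma adjusted p of 0.326. Rab27b, which works beside Rab3 proteins in vesicle docking, read 0.00, 0.68, -0.06, 0.31 and 0.34 in NC and 0.13, -0.17, 0.29, 0.23 and 0.37 in HE, also overlapping (difference -0.09 ± 0.16, adjusted p = 0.733). Its sign was positive relative to the array median (0.13), under normexp centring on the median probe (0.75) and without NC 2 (0.022). The other 5 members here lay between -0.36 (Rab27a) and 0.59 (Rab3d), and none passed the threshold.

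Rabs of the early endosome sort what the cell takes up, and of 10 tested, 2 rose and 1 fell (median 0.11). Rab35, which acts in fast recycling and in the growth of neurites, read 3.27, 3.27, 3.24, 3.37 and 3.11 in NC and 3.67, 3.55, 3.73, 3.60 and 3.66 in HE. The groups did not overlap. The rise of 0.39 ± 0.08 (SE; 1.31-fold, limma adjusted p = 0.0131) had the smallest p among members that rose, and it passed without each single array. Rab21, an endosomal Rab that binds integrins, read -0.52, -0.49, -0.30, -0.18 and -0.34 in NC and 0.01, -0.12, 0.17, -0.14 and -0.14 in HE. HE lay above NC throughout, with HE 4 close above NC 4. Its rise was 0.32 ± 0.10 (SE; adjusted p = 0.0465). Another Rab21 probe, in a single stretch at chr10:114727138-114727197 (mm9), gave -0.13 ± 0.08 (SE; adjusted p = 0.298), so that the probes of this gene disagree in sign.

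Rab31, an early endosome and trans-Golgi Rab related to Rab22a and expressed in glia, read 1.68, 1.797, 2.06, 1.83 and 2.14 in NC and 1.47, 1.57, 1.48, 1.62 and 1.34 in HE. The groups did not overlap, and the fall was -0.40 ± 0.11 (SE; 1.32-fold, adjusted p = 0.0295). Its other probe fell by 0.55 (SE 0.10; adjusted p = 0.00878). The myelin and astrocyte markers had median differences of -0.72 and -0.37, and their part in this result was not tested. The 8 astrocyte markers went both ways: 2 fell and 0 rose, and Slc1a2 and Slc1a3 stood at 0.21 each without passing. Under normexp centring on the median probe, which moved the median of all genes to 0.55, Rab31 stood at 0.57. Rab5a, the Rab of early endosome fusion, is printed 10 times on each array, and its mean was 3.09, 3.14, 3.18, 3.08 and 3.06 in NC and 3.15, 3.19, 3.33, 3.25 and 3.21 in HE. The SD between its 10 spots was 0.044 to 0.073 on an array, and the groups overlapped by HE 1 lying under NC 3 (difference 0.12 ± 0.07, adjusted p = 0.251). The other members, with Rab4a, Rab4b, Rab5b, Rab5c, Rab14 and Rab22a, lay between -0.47 and 0.23 and did not pass.

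Rabs of recycling and polarised export return cargo to the surface, and of 11 tested, 1 rose and 1 fell (median -0.04). Rab15, a brain-rich Rab of early and recycling endosomes, read 5.80, 5.504, 5.48, 5.502 and 4.92 in NC and 6.19, 6.25, 6.30, 5.99 and 6.09 in HE. All HE arrays lay above all NC arrays, and NC 5 was the lowest of all. The rise was 0.73 ± 0.15 (SE; 1.65-fold, limma adjusted p = 0.0147). Within slide 2, which sets HE 1 and HE 2 against that lowest array, it was 1.31. With slide as a block the estimate was that same difference (limma adjusted p = 0.0415).

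Rab25, an epithelial relative of Rab11, was close to background: -7.08, -6.46, -5.51, -5.46 and -5.56 in NC and -6.93, -7.05, -7.10, -6.92 and -7.30 in HE. It was well above background on 3 NC arrays and on 0 HE arrays, and NC 1 lay among the HE values. The measured means were -6.01 and -7.06 (adjusted p = 0.0372). Against the lowest signals well above background on the HE arrays, the mean of all 5 NC arrays was at least 1.73-fold higher, with the NC arrays that were not well above background taken at their value. Rab11a, the main Rab of recycling endosomes, read 2.16, 2.36, 2.47, 2.38 and 2.45 in NC and 2.35, 2.35, 2.53, 2.40 and 2.53 in HE, overlapping (difference 0.07 ± 0.09, adjusted p = 0.600), with the sign turned within slide 2 (-0.10). Rab11b lay higher on every HE array (0.19 ± 0.07, adjusted p = 0.083), and Rab8b lower on every HE array (-0.32 ± 0.12, adjusted p = 0.078), but neither passed. The remaining members of this role, with Rab8a and Rab10, lay between -0.32 and 0.21.

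Rabs of late endosomes, lysosomes and autophagy were 6, of which 1 rose and 0 fell. It was Rab24, an atypical Rab linked to autophagy, at 2.71, 2.77, 2.70, 2.90 and 2.59 in NC and 2.90, 2.99, 3.01, 2.999 and 3.12 in HE. Only NC 4 reached the HE range, and the rise was 0.27 ± 0.08 (SE; 1.20-fold, limma adjusted p = 0.0472). A dimmer Rab24 probe gave 0.03 ± 0.10 (SE; adjusted p = 0.837). Rab7, the main late endosome Rab, read 2.90, 2.93, 2.91, 2.95 and 2.93 in NC and 2.92, 2.995, 2.96, 3.06 and 2.96 in HE. The groups overlapped narrowly and differed by 0.06 ± 0.07 (adjusted p = 0.570), and with the mean of its probes by -0.02. Rab38, of lysosome-related organelles, gave the widest SE of all members (-0.80 ± 0.56, adjusted p = 0.322); 3 NC arrays and 1 HE array read it well above background.

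Rabs of the endoplasmic reticulum and Golgi were 17, the largest group, of which 1 rose and 1 fell (median 0.0049). Rab39b, an X-linked Rab of neurons, read -0.83, -0.82, -0.59, -0.60 and -0.57 in NC and -0.29, -0.42, -0.16, -0.52 and -0.43 in HE. The groups did not overlap, the rise was 0.32 ± 0.10 (SE; 1.25-fold, limma adjusted p = 0.0490), and with high Xist as a covariate it did not pass. Rab7l1, now named Rab29, acts at the trans-Golgi network and recruits the kinase Lrrk2. It read -0.56, -0.27, -0.22, -0.22 and -0.02 in NC and -0.70, -0.51, -0.69, -0.81 and -0.77 in HE. Only HE 2 lay above NC 1, the lowest control, and the fall was -0.44 ± 0.11 (SE; 1.35-fold, adjusted p = 0.0233), turned to 0.34 under normexp centring on the median probe. Rab6b, a brain-rich Golgi Rab, read 6.52, 6.37, 5.67, 5.84 and 6.15 in NC and 6.42, 6.51, 6.50, 6.52 and 6.54 in HE. The HE arrays lay close together at the top of the NC range (SD 0.05 against 0.36), and the difference of 0.39 ± 0.16 had an adjusted p of 0.101. It passed in 5 of 28 alternatives, among them 3 other scalings or background corrections and the fit without NC 1 (0.49, adjusted p = 0.040). Rab1b, an ER-to-Golgi Rab, was higher on every HE array (0.21 ± 0.07, adjusted p = 0.059), and the other members lay between -0.26 (Rab33b) and 0.33 (Rab43).

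Of the 5 tested Rabs of the cilium and of other roles, 1 rose and 0 fell. Rab40b, which carries a SOCS box and joins a ubiquitin ligase, read 0.56, 0.47, 0.31, 0.14 and -0.74 in NC and 0.81, 0.77, 1.49, 1.03 and 1.55 in HE. The groups did not overlap, NC 5 was the lowest array and HE 3 and HE 5 the highest. The rise of 0.98 ± 0.26 (SE; 1.98-fold, limma adjusted p = 0.0296) was the largest among members; without HE 3, HE 4 or HE 5 it did not pass, at 0.76 to 1.09 over all single arrays left out. The other Rab40b probe gave 0.55 ± 0.26 (SE, adjusted p = 0.145). With slide as a block the first gave 1.53 (limma adjusted p = 0.0478), the difference of HE 1 and HE 2 from NC 5, its lowest array. Rab23, Rab28, Rab40c and Rab42 lay between -0.01 and 0.14. Rab3ip, the exchange factor, gave 0.55 ± 0.19 (SE; adjusted p = 0.068).

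Slide 2 sets HE 1 and HE 2 against NC 5 alone, arrays that are also part of the whole comparison, so the signs on it are no independent check. Only slide 2 holds both groups, so the estimate with slide as a block is the slide 2 difference itself, with NC 5 as its only control. Xist was low on NC 5 and high on HE 1 and HE 2, so that slide 2 and the slide block cannot be told apart from the Xist pattern. With slide as a block, 3 of the 10 called members passed, Rab37, Rab15 and Rab40b, while 114 of all genes were then higher and 91 lower.

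**Figure D3:**
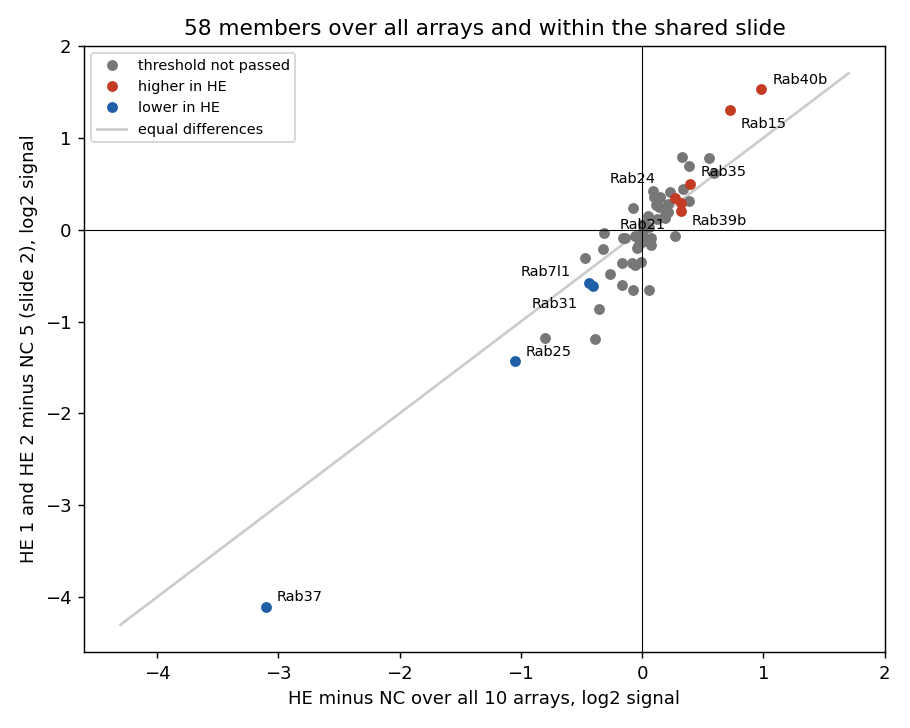
Difference between HE and NC in log2 signal over all 10 arrays (x axis) and between HE 1 and HE 2 and NC 5, the arrays of slide 2 (y axis), for the 58 tested members, coloured by call; the diagonal marks equal differences. Rab37 lies at -3.10 and -4.11, Rab15 at 0.73 and 1.31 and Rab40b at 0.98 and 1.53; the arrays of the y axis are part of those of the x axis.

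Rab37 was set beside the thalamic markers because the latter differed between the groups. The mean log2 signal of the 12 markers was 0.51, 0.37, 1.55, 1.27 and 1.797 on NC 1 to NC 5. On HE 1 to HE 5 it was -0.88, -0.92, -1.40, 0.42 and -1.23. In this mean HE 4 lay among the NC arrays, while in summed signal it lay below all of them (36.9 against at least 37.9). Rab37 did not overlap between the groups. Its highest HE array was HE 4 (-2.25) and its lowest NC array NC 2 (-0.61). With the mean of the thalamic markers as a covariate, chosen after the data were seen, the Rab37 difference was -2.09 (limma adjusted p = 0.242). In that fit 0 members and 1 of all genes passed by limma, and 2 higher and 2 lower members had an unadjusted p under 0.05. Rab35 stood at 0.29, Rab15 at 0.27, Rab40b at 0.21, Rab24 at 0.19, Rab31 at -0.06 and Rab25 at -0.07. Rab7l1 stood at -0.31, Rab21 at 0.35 and Rab39b at 0.34, against -0.44, 0.32 and 0.32 without the covariate. The marker mean itself differed between the groups, so the covariate overlaps with the group.

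**Figure D4:**
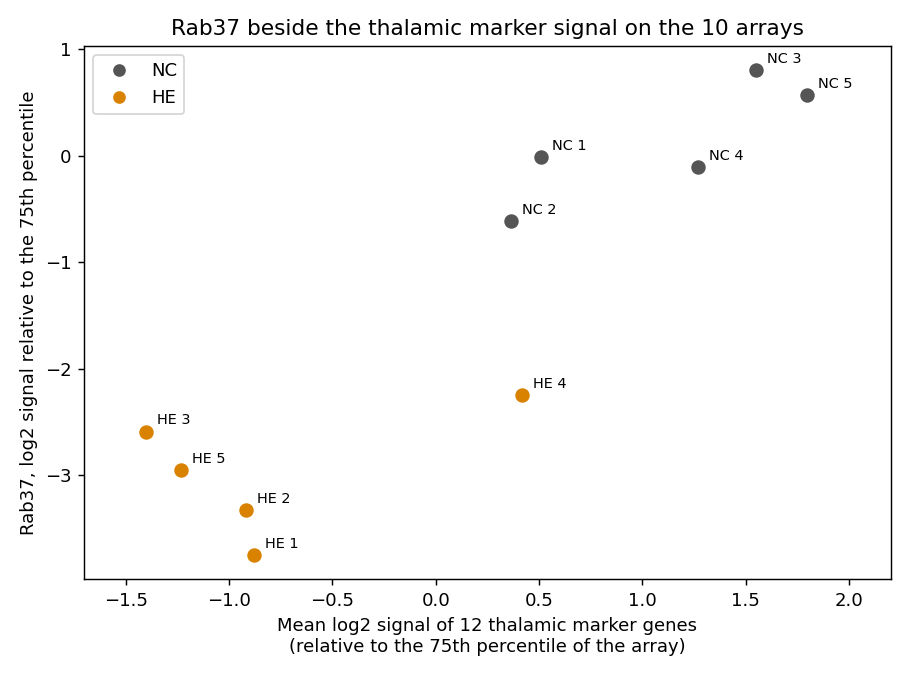
Rab37 log2 signal (y axis) against the mean log2 signal of 12 thalamic markers (x axis), both relative to the 75th percentile of the array, on each of the 10 arrays. HE 4 lies at 0.42 on the x axis, beside NC 2 at 0.37. These arrays stand at -2.25 and -0.61 on the y axis, the highest HE value and the lowest NC value.

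Probes of the same Rab did not always move together, and calls differed with the kind of transcript a probe was designed on, a pattern noticed after the values were seen. Of 111 member probes tested one by one, 9 were higher and 12 lower, against 7.70% and 15.5% of all probes. Among the 98 designed on RefSeq transcripts 8 were higher and 7 lower, and among the 9 designed on RIKEN full-length cDNAs, a collection of cloned mouse transcripts, 1 was higher and 5 lower. All probes showed a split of the same direction: 41.7% of 3809 RIKEN probes and 10.6% of 23486 RefSeq probes were lower. The 5 lower ones belong to Rab10, Rab28, Rab14, Rab12 and Rab5b, of which none was called by its brightest probe.

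For the 8 members with both kinds, the RIKEN probe was set against the mean of the RefSeq probes in 9 pairs, given as a description without a test because the pattern was seen in the same values. Over all probes, the median difference was -0.70 for RIKEN probes and -0.0039 for RefSeq probes, and the pairs are read against that gap. For Rab10, an exocytic Rab, the RIKEN probe read -2.52, -3.26, -3.71, -3.69 and -3.03 in NC and -4.64, -4.06, -5.64, -4.15 and -4.09 in HE, every HE array below every NC array. It differed by -1.28 and the RefSeq probes by 0.04. For Rab14, of endosome-to-Golgi transport, the RIKEN probe differed by -0.78 and the RefSeq probes by 0.30. Rab12 gave -0.64 and 0.05, Rab26 -0.29 and 0.38, and Rab5b -0.43 and 0.14, gaps no wider than that over all probes. Rab28 has RIKEN probes on either side of 0, at -0.86 and at 0.37, against 0.07 for its RefSeq probe. Rab18 gave 0.64 and 0.20, and Rab42 -0.01 and 0.01. The RIKEN probes that fell were well above background on 5 NC and 5 HE arrays. That of Rab14 had the highest mean (-0.37), above the median of all genes tested, which was -1.02 to -0.86 over the arrays. Those of Rab28, Rab10, Rab12 and Rab5b were dimmer, with NC means of -4.25 to -2.92. Of the 47 RefSeq member probes at or below -0.37, 6 were lower and 2 higher. That cutoff is the Rab14 probe, so the 47 are not matched in brightness to the other RIKEN probes that fell. The part of dimness was not tested.

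**Figure D5:**
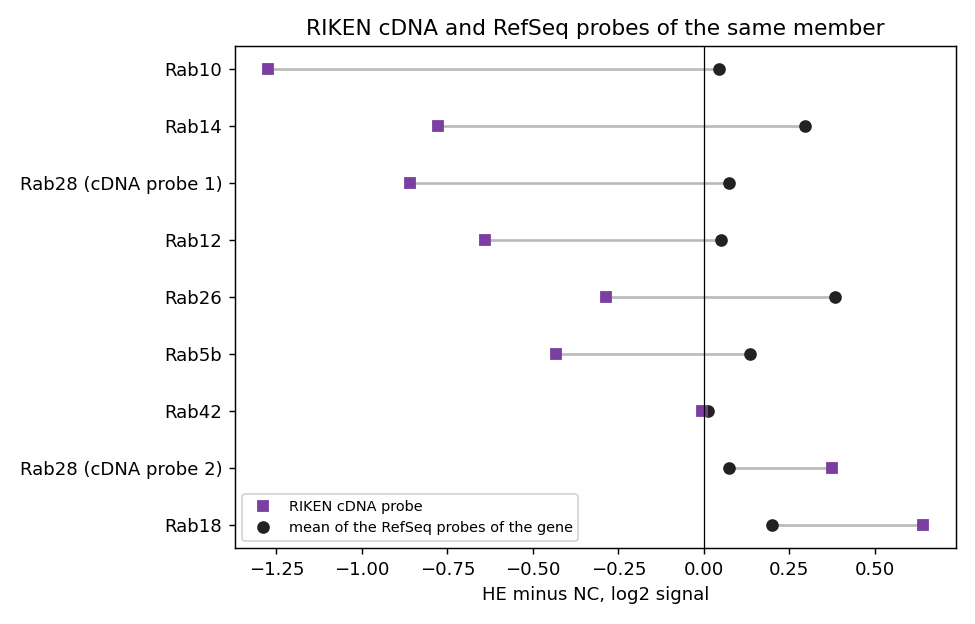
Difference between HE and NC in log2 signal (x axis) of the RIKEN cDNA probe (square) and of the mean of the RefSeq probes (circle) of the same member, for 9 pairs (y axis). The squares of Rab10, Rab14, Rab12, Rab26, Rab5b and 1 of Rab28 lie left of 0 and their circles right of it.

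The regulators and effectors of the cycle were read from lists written from general knowledge of the pathway. Of 10 genes of prenylation and membrane cycling, which put the lipid anchor on Rabs and take them off membranes, 1 rose and 1 fell (median 0.14). Chml, a Rab escort protein, fell by 0.53 (SE 0.12; limma adjusted p = 0.016), and Ppm1h, the phosphatase that removes phosphate from Rabs, rose by 0.55 (SE 0.13; adjusted p = 0.018), with its sign turned under normexp (-0.27).

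Of 43 exchange factors tested, 4 rose and 4 fell (median -0.04). The Rab35 exchange factors Dennd1b and Dennd1c fell, by 1.27 (SE 0.24; limma adjusted p = 0.011) and 0.95 (SE 0.18; adjusted p = 0.013), while Rab35 itself rose. Hps4, of the exchange factor of Rab32 and Rab38, fell by 0.37, though not under normexp centring on the median probe (0.66). Sbf1 rose by 0.76, Mon1b, of the Rab7 exchange factor, by 0.49, and the TRAPP subunit Trappc6b by 0.42. Of 38 GTPase-activating proteins, 6 rose and 2 fell (median 0.10). Tbc1d9 rose by 0.62, Tbc1d30 by 0.61 and Sgsm2 by 0.40, and Tbck fell by 0.58 and Tbc1d19 by 0.28; under normexp centring on the median probe the last pair stood at 0.16 and 0.62. Of 42 effectors, 4 rose and 2 fell (median 0.03). Rab11fip4 rose by 0.74 (SE 0.11; adjusted p = 0.007), Rilpl1 by 0.51 and the Rab5 effector Zfyve20 by 0.29. Fyco1, which links Rab7 vesicles to kinesin, fell by 0.68 (SE 0.10; adjusted p = 0.007) and Micall1, of recycling endosomes, by 0.60; under normexp centring on the median probe they stood at 0.25 and 0.49. With slide as a block, these 18 named regulators and effectors lost their call, at limma adjusted p-values of 0.060 to 0.399. Over the alternatives, Hps4 passed in 10 of 28, Tbc1d19 in 11 of 28 and Zfyve20 in 13 of 27. The share called was 20%, 18.6%, 21.1% and 14.3% in these 4 lists, beside 20.4% of all genes tested (6.48% higher and 13.9% lower).

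Promoters were read from RefSeq (GRCm38.p6) for the 250 bases before the start, matching 49 of the 59 members with 61 promoters. Of the called members 9 were matched, and no promoter of Rab37 was available to search. Members have promoters rich in G and C: the median was 60.4%, with 15 CpG, against 52.4% and 6 over all 32851 promoters. The GC box GGGCGG, on either strand, was in 67.2% of member promoters and 32.7% of all. It was in 6 of 12 promoters of called members (50%, from 9 genes) and in 35 of 49 of members not called (71.4%). The 12 include several promoters of Rab15. The full oestrogen response element GGTCANNNTGACC was in 0 of 61 member promoters and 0.064% of all, and the half-site AGGTCA, searched by itself, in 3 of 61, those of Rab31, Rab32 and Rab43, and 14.0% of all. The cyclic AMP response element TGACGTCA was in those of Rab25 and Rab5a, and in 1.55% of all. The promoters of Rab31 (chr17:65772753-65773002, minus strand) and Rab25 (chr3:88548280-88548529, minus strand) are the only ones among the 9 matched called members with either. They are printed with these motifs and the GC box in capitals.
Rab31: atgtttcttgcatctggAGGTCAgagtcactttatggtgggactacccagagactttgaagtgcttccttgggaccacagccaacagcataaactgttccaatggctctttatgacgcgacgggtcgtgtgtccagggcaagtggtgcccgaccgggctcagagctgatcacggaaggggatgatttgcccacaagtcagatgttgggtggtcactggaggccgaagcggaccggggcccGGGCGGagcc
Rab25: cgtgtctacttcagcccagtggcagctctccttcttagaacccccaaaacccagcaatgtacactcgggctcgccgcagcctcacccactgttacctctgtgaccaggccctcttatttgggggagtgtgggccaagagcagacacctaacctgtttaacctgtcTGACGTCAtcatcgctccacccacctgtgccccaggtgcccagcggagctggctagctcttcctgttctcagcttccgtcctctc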

How the data were processed

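Hippocampal RNA of 10 mice was hybridised to 1-colour Agilent arrays and read with Agilent Feature Extraction (version 10.7 in the submitters' processing notes). The deposited scanner files hold spot brightness as intensity, background-subtracted and detrended within each array, per the file headers. The authors also deposited a value table of log2 values, which matched log2 processed intensity after quantile normalization (slopes 1.0022 to 1.0026, column medians of 7.0334 to 7.0337); it was used as an alternative, and its software is not given in the sources used here.

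Log2 intensity was taken relative to the 75th percentile of each array over non-control probes. Outlier spots were left out (68 to 129 an array; 0 were saturated) and spots of a probe averaged. A probe entered if at least 3 arrays of 1 group read it well above background, and 30981 did. A gene is its name in the files, read by the brightest entering probe. Of the member probes, 96 matched the RefSeq table (GRCm38.p6) by accession and 20 by symbol or synonym, and 3 carry another symbol there. Of 38 members with several entering probes, 16 had probes of opposite sign. Probe positions are on mm9 as in the files; no genome was used, so exons and untranslated regions are not stated.

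HE was tested against NC on all 10 arrays by a two-sided limma fit (version 3.58.1, R 4.3.3; lmFit, then eBayes) without covariates, adjusted by Benjamini-Hochberg over 20086 genes. Values on every array were given for up to 7 called members with the smallest p in each direction and for Rab3a, Rab27b, Rab5a, Rab7, Rab11a and Rab6b; of each regulator list, up to 3 called genes in each direction were named. Members and lists were chosen with earlier results of these data known; the comparison of RIKEN with RefSeq probes was added after their values were seen. Alternatives were slide or replicate number as a block, normexp with an offset of 50, other scalings, the value table, other filters and ways of joining probes, a trend with a robust prior, the Xist pattern, arrays left out and, added later, thalamic markers as a covariate.

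No 2 arrays of a group were duplicates (SD of log2 differences 0.444 to 0.722), and pairs across the groups were not compared in this way. Simulated data for HE against NC with 20086 genes held 71, 71 and 58 genes changed by log2 0.5, 1 and 2. Of these the test recovered 23.9%, 45.1% and 81.0%, with 7 wrong among 103 calls, and it made 1 call with nothing changed. Far fewer genes were changed than the 4097 called in the data. The adjusted threshold depends on that number, so these shares need not hold for the reported fit. The simulated noise was independent between genes and arrays and held no slide or marker difference. The wrong calls therefore need not hold for these arrays either.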

Additional observations from a re-analysis of the deposited data

Results flagged for a closer look

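Of 70 gene and group combinations screened for 1 array standing apart from the other 4 of its group, 5 did, and chance marks about 1 in 20. None of the 5 is a Rab GTPase: they are regulators or effectors of the cycle. Rab3ip, an exchange factor of Rab8, stood at 1.89 on HE 3 against 1.13 on the nearest HE array. Among controls, NC 1 gave Tbc1d30 at 2.45, against 1.89 on the nearest. The kinesin linker Fyco1 stood at 0.43 on HE 1 against 0.36 on the nearest. Hps4 lay at 2.45 on HE 4, under 2.60 on the nearest. For the escort protein Chml, HE 2 lay at -0.61, under -0.34 on the nearest.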

How the results depend on the processing

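The counts of called members (6 higher and 4 lower) moved with the settings. Higher members were 2 with slide as a block (0.568% of all genes) and 32 under normexp centred on the median probe (36.3%). Relative to the array median they were 17 (16.6%), and with no filter on dim probes 3 (3.24%). Without NC 1, NC 2 and NC 4, the arrays with liver transcripts, they were 3 (4.10%). By limma, they were 0 on the arrays with high Xist alone (0.0349%, with 7 members at an unadjusted p under 0.05). With the thalamic covariate they were 0 (0.00498%, with 2 members at that p). Lower members were 1 with slide as a block (0.453% of all genes), 10 under normexp (35.4%) and 1 relative to the array median (8.68%). With high Xist alone 1 was lower (Rab37, beside 0.339%), and with the thalamic covariate 0 (0%, with 2 members at an unadjusted p under 0.05). Leaving out 1 array gave 2 to 6 higher members, with 3 or fewer without NC 3, NC 5 or any HE array. It gave 1 to 6 lower, with 2 or fewer without NC 2, NC 5, HE 1, HE 3, HE 4 or HE 5. Of all genes, 2.82% to 7.03% were then higher and 7.05% to 14.0% lower. The members' median (0.055) was -0.026 with slide as a block, 0.11 under normexp, 0.95 under normexp centred on the median probe and 0.27 relative to the array median, and 0.0098 to 0.072 with 1 array left out, lowest without NC 1. The median of all genes stood at -0.29, 0.55 and 0.16 under these 3 scalings, so the members' median lay 0.40, 0.40 and 0.11 above it, against 0.11 as reported. The higher share of all calls was 31.8% as reported, 20.1% under normexp, 79.6% centred on the median probe, 44.1% under quantile normalization and 65.6% relative to the array median.

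Single calls held unevenly. Rab37 passed in 27 of 28 alternatives, Rab15 in 26, Rab35 in 25, Rab40b in 20, Rab7l1 in 18 and Rab31 in 15, while Rab21 passed in 11, Rab39b in 10, Rab24 in 9, and Rab25 in 9 of 27. Without 1 array, the call was lost for Rab7l1 (NC 2, HE 1, HE 4 or HE 5; -0.51 to -0.38), Rab31 (any but NC 1, NC 4, HE 2 and HE 4; -0.46 to -0.34), Rab21 and Rab24 (any but NC 4; 0.27 to 0.37 and 0.23 to 0.31), Rab25 (any but NC 1; -1.32 to -0.91) and Rab39b (any; 0.26 to 0.36). Signs turned under normexp centred on the median probe for Rab7l1 (0.34), Rab31 (0.57), Rab27b (0.75), Tbck (0.16), Tbc1d19 (0.62), Fyco1 (0.25), Micall1 (0.49), Hps4 (0.66) and Chml (0.34), and under normexp for Ppm1h (-0.27). Rab27b also turned relative to the array median (0.13), without NC 2 (0.022, with -0.16 as the lowest value without 1 array) and without NC 1, NC 2 and NC 4 (0.027), Rab7 with the mean of its probes (-0.023), and Rab11a with slide as a block (-0.096) and without NC 1, NC 2 and NC 4 (-0.024). The causes of these changes were not tested. The replicate numbers of the titles do not pair the arrays: deviations of equal-numbered arrays correlated at -0.076 to 0.13, and 2 of 5 correlated best with their own number. With that replicate block 3 members were higher and 1 lower, beside 3.60% and 11.6% of all genes. Signal over background limits Rab25, Rab38 and Rab44.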
